A study of Mus musculus with 384 samples.

Results

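Each of 4 sorting plates of tumour-infiltrating T cells carried 1 well holding a population of cells beside its wells of single cells, and the population library of each plate was compared here with the pool of single cells from the same plate. The pool of a plate is the arithmetic mean of FPKM (fragments per kilobase of transcript, scaled to library size, so a level per transcript length) over its single-cell wells with at least 1000 genes at 1 FPKM or more. The 4 population libraries were chosen by the word in their titles, 1 of the 96 libraries of each plate. The pools hold 77, 72, 78 and 74 of the 94 single-cell wells of the CD8 plate labelled knockout, the CD8 wild-type plate, the CD4 plate labelled knockout and the CD4 wild-type plate. Wherever 4 values follow each other below, they stand in this order of plates. The other 4 libraries are no-cell wells, which had 8, 11, 6 and 26 genes at 1 FPKM or more.

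All cells came from B16F10 melanomas, tumours of a transplantable mouse skin cancer line, grown in C57BL/6 mice that were either wild type or knockout for Il27ra, the receptor chain specific for the cytokine IL-27. Population and single-cell wells went through Smart-seq2, a plate method that amplifies full-length cDNA by PCR without molecular identifiers. Only CD8+ cells appear in the treatment label, but 2 plates have CD4 in their titles, which set the grouping. The sources used here do not give the number of cells in a population well, the animals behind it or its sort gate. Each genotype is read as 1 source (WT4 and KO4 in the titles) with 1 plate per cell type, so a p-value over the 4 plates measures only the spread between these plates.

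A population well and a pool of cells of the same sort should hold the same transcripts, but the wells start from different amounts of RNA. In a single cell most mRNAs are present in few copies, many are lost before amplification, and genes transcribed in bursts or in a small share of cells reach a pool through few wells. T cells in tumours carry activation and inhibitory receptors such as PD-1 and 4-1BB, kill through granules of granzymes and perforin, and divide when they recognise antigen.

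The population libraries had the larger scale. Their FPKM summed to 1669216, 1823543, 1548049 and 1375767, against 799496, 950109, 738834 and 749780 in the pools, which is a ratio of 2.09, 1.92, 2.10 and 1.83. Of 23420 genes in the table, the population libraries had 10848, 10771, 10449 and 9918 at 1 FPKM or more, against a median per kept cell of 2243, 2530.5, 2091 and 2047. Across the 7587 genes with a mean of at least 10 FPKM, log2 levels of each population library correlated with its own pool at Pearson's r of 0.874, 0.902, 0.847 and 0.752, a description across genes of libraries that share a plate and a processing run. The CD4 wild-type library had the lowest correlation with its own pool, and its correlation with the pool of the CD4 plate labelled knockout was 0.773. The CD8 library labelled knockout correlated about equally with its own pool and with that of the CD8 wild-type plate, at 0.875. Counts of calls in the main gene classes are given with and without the CD4 wild-type plate.

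Il27ra, the targeted gene, was present in every library. It had 92.9, 155.4, 133.4 and 244.6 FPKM in the population libraries, against 74.8, 101.5, 64.1 and 103.2 FPKM in the pools, where 44, 37, 37 and 27 cells had 1 FPKM or more. The plates labelled knockout thus held Il27ra transcript in both kinds of library, so they are called labelled knockout throughout. Its locus overlaps Palm3 on the other strand, and the deposited FPKM are values per gene that do not show which exons the reads came from. Cd8a and Cd4 went with the cell types of the titles. Cd8a, a chain of the CD8 coreceptor, had 831, 944, 0.66 and 0.57 FPKM in the population libraries and 469, 569, 0.02 and 0.09 FPKM in the pools. Cd4 had 1.11, 0, 907 and 777 FPKM in the population libraries and 0.03, 0.02, 582 and 445 FPKM in the pools. Cd8b1, also on the CD8 lineage list, was read in the CD4 plates as well. It had 2178, 2177, 122.2 and 5.34 FPKM in the population libraries and 966.5, 1159, 0.57 and 29.9 FPKM in the pools. In the pools 65, 64, 18 and 19 cells had Cd8b1 at 1 FPKM or more. All 18 genes of the T cell identity list were tested and summed to 13681, 16573, 17711 and 17305 FPKM in the population libraries, against 7402, 9280, 8200 and 8032 FPKM in the pools.

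Most genes were higher in the population libraries on the deposited scale. Differences are population minus pool on the log2(FPKM + 1) scale, which understates the change of genes with low values, averaged over 4 plates and given ± the standard error of limma, a linear model fitted over the 11462 genes with a mean of at least 1 FPKM and with the plate as a block. The median gene differed by 0.75, with plate medians of 0.82, 0.68, 0.79 and 0.72. Of the tested genes, 2679 were called higher (23.4%) and 27 lower (0.236%) at an adjusted p (Benjamini-Hochberg) under 0.05. The share called higher grew with level, with 1.9% of genes at 3 to 10 FPKM, 32.6% at 30 to 100 FPKM, 73.2% at 100 to 300 FPKM, 90.5% at 300 to 1000 FPKM and 97.9% at 1000 FPKM or more. The split between higher and lower follows the scale of the libraries. With each plate centred on its median gene, 75 were called higher (0.654%) and 14 lower (0.122%), and with every library rescaled to the same sum 12 were called higher and 13 lower, the median gene then lying at -0.14. All 75 genes called higher after centring, and 12 of the 14 called lower, were also called on the deposited scale. The calls rest on the model's intensity trend: without it limma called 0 genes in either direction, although 4049 had an unadjusted p under 0.05 (4379 with the trend). Without the CD4 wild-type plate 2009 genes were called higher and 15 lower on the deposited scale, and 61 higher and 7 lower after centring; without any other single plate 794 to 1126 were called higher and 4 to 11 lower on the deposited scale, and 0 after centring in either direction. An exact sign test over 4 plates cannot go below a p of 0.125. A count that needs no scale or model is that of genes above the median gene of their plate in all 4 plates, which held for 1176 genes (10.3%), whereas 1037 (9.05%) were below it in all 4.

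Gene classes differed around that median. Genes of proliferation stood highest, and cytosolic ribosomal proteins, subunits of oxidative phosphorylation and glycolysis enzymes also stood above the median gene. Naive and memory genes, immediate early genes, T cell transcription factors and zinc finger genes stood below it. The median difference was 1.61 over 31 proliferation genes, 1.37 over 81 cytosolic ribosomal proteins, 1.33 over 76 respiratory subunits, 1.29 over 17 cytokines and chemokines and 1.20 over 16 glycolysis genes, against 0.75 over all tested genes. It was 0.43 over 13 naive and memory genes, 0.50 over 22 immediate early genes, 0.53 over 23 T cell transcription factors and 0.56 over the zinc finger genes, of which 76.9% of the 360 in the table were tested. Lists with lower medians included 14 myeloid markers (-0.865), 6 melanoma markers (-0.659), 9 genes of MHC class II presentation (0.233) and 22 small RNAs (0.329). By plate the myeloid median was 2.11, 0.20, 0 and -5.37 and the melanoma median -2.18, -2.67, 0.92 and 1.04. For MHC class II it was 1.84, 0.25, 0.53 and -1.64. The sign of these marker lists thus differed between plates, and they are given no direction. The T cell identity list had a median difference of 0.95. With single plates left out, the median of cytokines and chemokines ranged from 0.47 below to 0.70 above the median gene, so this list is given no direction. In a population well, fewer cells of a kind and less RNA per cell cannot be told apart.

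**Figure D1:**
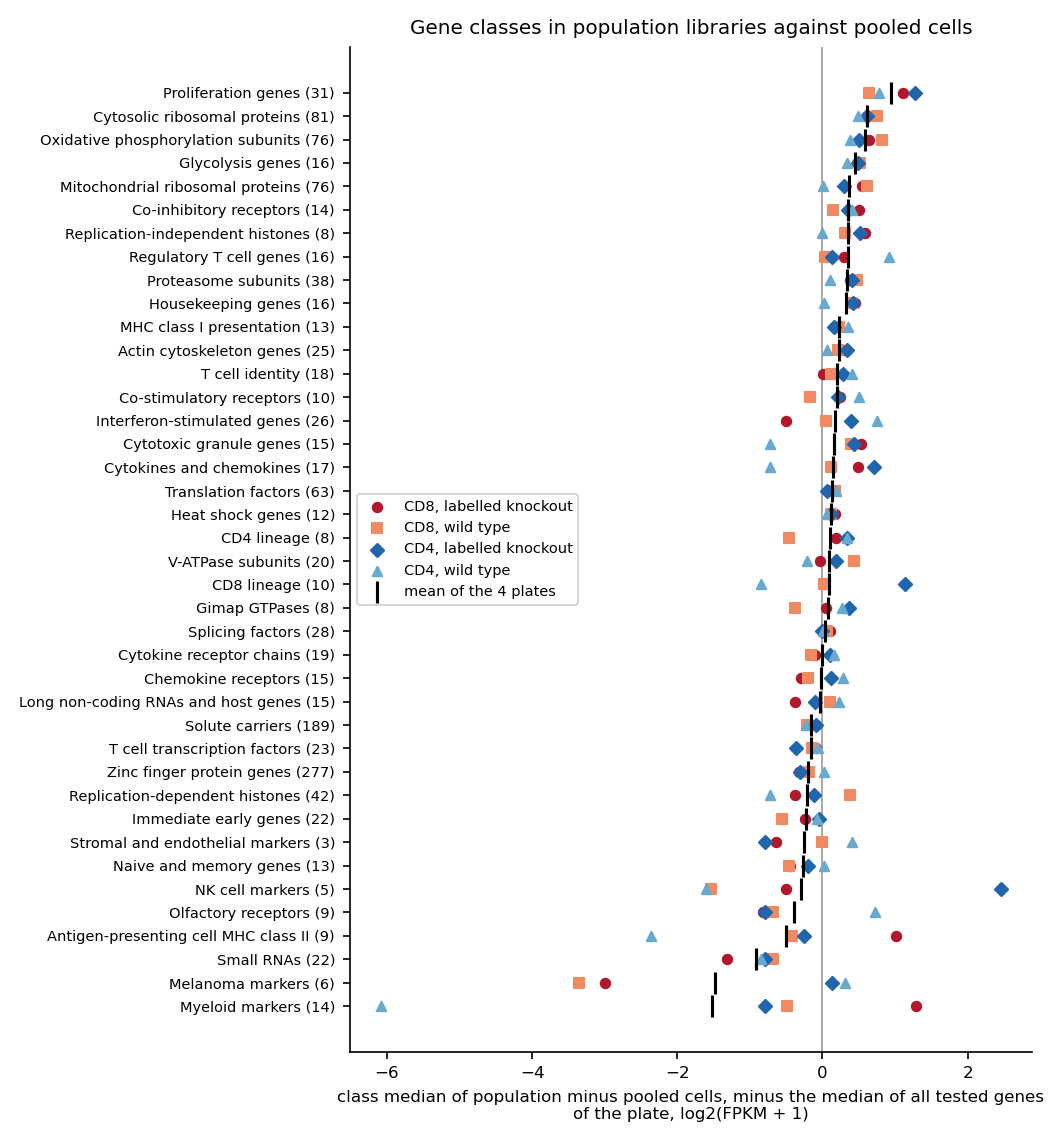
Median difference of each gene class, population minus pooled cells on the log2(FPKM + 1) scale, minus the median of all tested genes of the plate (x axis). The 4 symbols of a row are the plates, the black bar is their mean, and the number in brackets is the number of tested genes; the proliferation symbols lie between 0.64 and 1.28, all to the right of 0.

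Proliferation genes had the highest median difference of the classes. All 31 listed genes were measured and tested, and 24 were called higher and 0 lower, against 23.4% of all tested genes and 73.2% of genes at 100 to 300 FPKM, where the median level of the list lies. After centring 2 of 31 were called higher, against 0.654% of all tested genes, and 21 of 31 lay above the plate median in all 4 plates, against 10.3%. Without the CD4 wild-type plate 26 were called higher on the deposited scale, and with any other plate left out 15 to 18. The 31 genes summed to 11901, 19153, 6373 and 4449 FPKM in the population libraries, against 3914, 7392, 2120 and 2061 FPKM in the pools. As a share of all FPKM of a library they made up 0.713%, 1.05%, 0.412% and 0.323% in the population libraries, against 0.490%, 0.778%, 0.287% and 0.275% in the pools, so they were higher in the population library of every plate on this scale as well.

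Several of the largest differences belonged to genes of mitosis. Ube2c, the ubiquitin-conjugating enzyme that works with the anaphase-promoting complex, lies at chr2:164769898-164778822 on the plus strand (GENCODE M21, GRCm38). It had 199.5, 1045, 140.5 and 274.9 FPKM in the population libraries, against 20.2, 180.3, 3.3 and 5.27 FPKM in the pools. Each population library was at least 5-fold above its pool, a difference of 4.07 ± 0.47 (adjusted p = 0.000918, limma), and 3.32 ± 0.46 after centring (adjusted p = 0.0195). The transcript was nonetheless seen in many cells, 34, 42, 24 and 27 of the 77, 72, 78 and 74, which is 44.2% (95% Clopper-Pearson interval 32.8 to 55.9), 58.3% (46.1 to 69.8), 30.8% (20.8 to 42.2) and 36.5% (25.6 to 48.5), counting error only. The single highest cell gave 41.4, 18.1, 40.9 and 66.6% of the pool. Cdc20, the activator of the anaphase-promoting complex, had 90.4, 303.8, 71.2 and 51.95 FPKM in the population libraries, against 13.8, 62.2, 6.57 and 0.11 FPKM in the pools, where 3, 10, 3 and 3 cells had it. Ccnb1, cyclin B1 of the mitotic kinase, had 92.6, 317.2, 52.2 and 34.6 FPKM in the population libraries, against 6, 79.4, 7.22 and 0 FPKM in the pools, where 4, 13, 1 and 0 cells had it; 0 of 74 cells allows a share of up to 4.05% of cells in which it is read (3 counts), which does not limit the share of cells that express it. Plk1, a mitotic kinase outside the fixed list, had 133.1, 137.1, 47.4 and 50.2 FPKM in the population libraries, against 12.8, 64.9, 2.4 and 1.17 FPKM in the pools. For all 3 the population and pooled values of each plate lay apart by more than 2-fold, with differences of 3.43 ± 0.54, 3.39 ± 0.52 and 3.19 ± 0.55 (adjusted p = 0.00379, 0.0035 and 0.00573, limma). After centring their adjusted p was 0.064, 0.0616 and 0.0971. The annotated loci of Ube2c, Cdc20 and Plk1 overlap Tnnc2, Elovl1 and Gm44985 on the other strand, and the sources used here do not state that counting used strand, so part of their reads could belong to these neighbours; the locus of Ccnb1 overlaps no annotated gene.

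The promoter windows of these 4 genes are shown because the genes were among the 12 highest differences. That choice fixed their shared direction, which is therefore no finding about their promoters. They are 300-base windows of RefSeq on build GRCm38.p6, 250 bases before to 50 bases after the annotated start, written 5′ to 3′ along the gene. Capitals mark TTTGAA, the core of the cell cycle homology element, and CCAAT, the core of NF-Y sites, each on either strand (TTCAAA and ATTGG), and neighbouring matches can overlap. The windows are chr2:164769679-164769978 on the plus strand for Ube2c, chr4:118437294-118437593 on the minus strand for Cdc20, chr13:100786437-100786736 on the minus strand for Ccnb1 and chr7:122159185-122159484 on the plus strand for Plk1.
Ube2c: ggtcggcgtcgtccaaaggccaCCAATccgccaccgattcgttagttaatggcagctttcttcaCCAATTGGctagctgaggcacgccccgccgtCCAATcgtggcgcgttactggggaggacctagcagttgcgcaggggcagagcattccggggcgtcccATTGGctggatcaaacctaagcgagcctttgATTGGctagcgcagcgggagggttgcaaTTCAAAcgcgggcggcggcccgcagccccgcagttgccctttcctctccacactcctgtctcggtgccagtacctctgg
Cdc20: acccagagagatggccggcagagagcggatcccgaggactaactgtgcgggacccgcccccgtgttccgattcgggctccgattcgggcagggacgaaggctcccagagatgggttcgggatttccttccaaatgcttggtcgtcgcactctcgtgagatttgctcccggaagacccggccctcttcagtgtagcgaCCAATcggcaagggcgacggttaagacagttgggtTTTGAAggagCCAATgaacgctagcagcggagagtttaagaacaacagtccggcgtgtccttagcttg
Ccnb1: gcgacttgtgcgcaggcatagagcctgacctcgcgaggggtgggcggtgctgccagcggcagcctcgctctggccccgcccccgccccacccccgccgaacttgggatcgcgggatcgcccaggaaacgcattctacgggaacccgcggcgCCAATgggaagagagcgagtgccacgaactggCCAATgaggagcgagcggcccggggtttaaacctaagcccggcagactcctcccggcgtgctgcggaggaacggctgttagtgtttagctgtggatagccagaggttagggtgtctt
Plk1: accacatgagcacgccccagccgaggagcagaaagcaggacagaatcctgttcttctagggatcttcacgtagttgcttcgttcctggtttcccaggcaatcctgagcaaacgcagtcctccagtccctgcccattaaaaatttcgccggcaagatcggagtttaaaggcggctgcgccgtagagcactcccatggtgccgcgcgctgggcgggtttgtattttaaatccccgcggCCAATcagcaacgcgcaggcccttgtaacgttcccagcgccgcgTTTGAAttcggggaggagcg
The windows of Ube2c, Cdc20, Ccnb1 and Plk1 held 1, 1, 0 and 1 matches to TTTGAA and 6, 2, 2 and 1 matches to CCAAT. Of 31 proliferation genes 27 had a window, and of their 28 windows 39.3% held TTTGAA and 78.6% held CCAAT, against 17.9% and 37.4% of all 32851 windows. A match is a string of letters and not evidence of a bound factor.

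Other listed genes of the cycle had smaller differences than Ube2c, Cdc20 and Ccnb1. Cenpa, the histone variant of centromeres, had 197.6, 628, 153.2 and 221.3 FPKM in the population libraries, against 32.6, 108.7, 26.01 and 77.6 FPKM in the pools, a difference of 2.27 ± 0.24 (adjusted p = 0.000649, limma; 0.0304 after centring). Top2a, the topoisomerase that untangles replicated DNA, had 153.5, 191.2, 69.1 and 85.4 FPKM in the population libraries, against 45.2, 91.02, 10.9 and 26.4 FPKM in the pools (1.76 ± 0.30, adjusted p = 0.00545). Mcm3, a subunit of the replicative helicase, had 347.7, 503, 230.8 and 124.8 FPKM in the population libraries, against 108.1, 182.8, 61.7 and 46 FPKM in the pools (1.61 ± 0.19, adjusted p = 0.000931). Pcna, the sliding clamp, had 512, 731, 358.2 and 162.7 FPKM in the population libraries, against 152.5, 255.1, 192.9 and 102.9 FPKM in the pools (1.20 ± 0.21, adjusted p = 0.0064). Every plate had both genes higher in the population library. Tyms, the enzyme that makes thymidylate, was read in most cells, 64, 64, 54 and 66, at low levels, with pooled means of 18.3, 31.6, 4.55 and 11.9 FPKM beside 84.6, 99.2, 55.1 and 25.8 FPKM in the population libraries (2.04 ± 0.43, adjusted p = 0.0113). Rrm2, Hells, Mcm4, Mcm5, Mcm7, Bub1 and Cenpf did not pass the test. Rrm2, a subunit of ribonucleotide reductase, differed by 0.58 ± 0.73 (adjusted p = 0.602), with 323.3, 404, 312.1 and 8.18 FPKM in the population libraries and 94.5, 241.2, 49.3 and 64.3 FPKM in the pools.

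**Figure D2:**
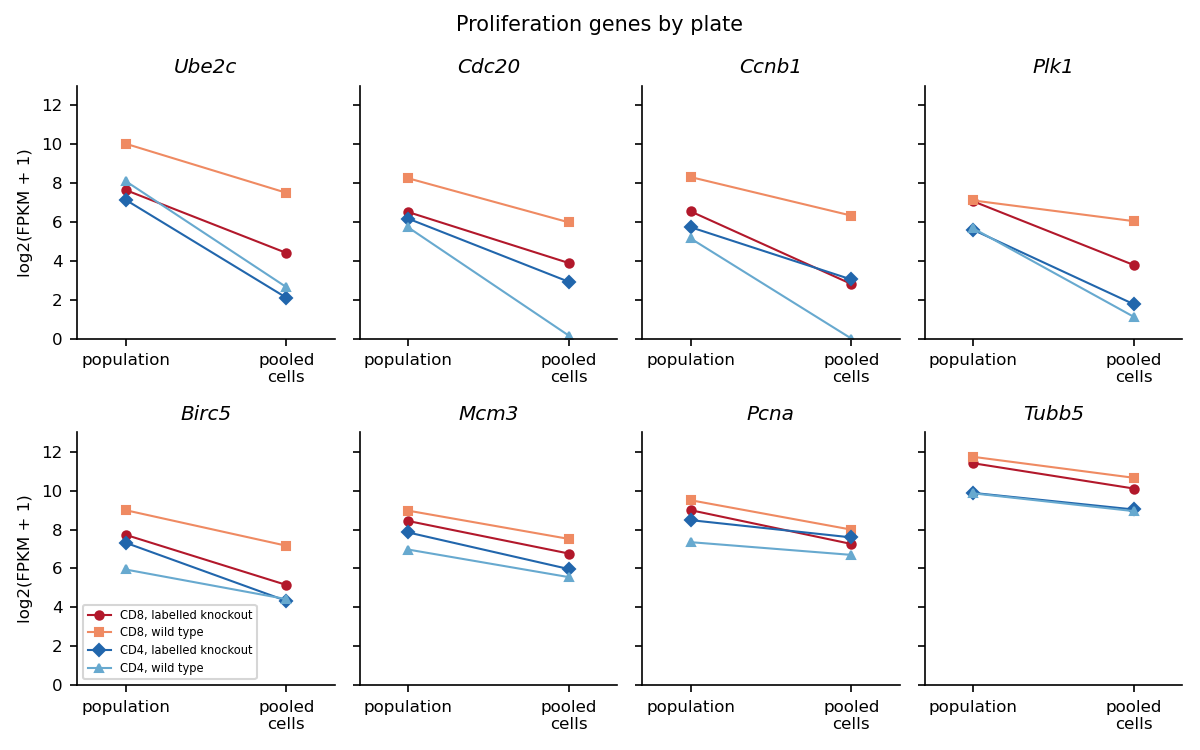
Levels of named proliferation genes on the log2(FPKM + 1) scale (y axis) in the population library and in the pooled cells of each plate, 1 line per plate. Ube2c has 199.5 FPKM in the population library of the CD8 plate labelled knockout and 20.2 FPKM in its pool, and every line of Ube2c falls from left to right.

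Other genes outside the list, like Plk1, were among the highest differences. Aurka, a mitotic kinase, had 36.02, 102.2, 66.7 and 31.8 FPKM in the population libraries and 13.5, 29.98, 0 and 0.88 FPKM in the pools (3.32 ± 0.76, adjusted p = 0.0159, limma). Gins1, a replication factor, and Ccnf, an F-box cyclin, differed by 3.08 ± 0.56 and 2.91 ± 0.71 (adjusted p = 0.00654 and 0.02). The highest of all called genes was Dusp14, a phosphatase that dampens T cell receptor signalling (chr11:84048041-84069261, minus strand), with 72.5, 115.4, 31.2 and 71.6 FPKM in the population libraries, against 4.76, 12.8, 0.02 and 0 FPKM in the pools. Only 3, 4, 1 and 0 cells had Dusp14 at 1 FPKM or more, and it differed by 4.48 ± 0.59 (adjusted p = 0.00169) and by 3.73 ± 0.58 after centring (adjusted p = 0.0291). Cd70, the ligand of CD27, had 12.2, 54.3, 9.73 and 23.3 FPKM in the population libraries and 3.01, 10.8, 0 and 0 FPKM in the pools (2.99 ± 0.64, adjusted p = 0.0123). The other 3 of the 12 highest were Tmem29 (3.44 ± 0.59), Aldoc, an aldolase (3.08 ± 0.82), and Cables2. With the CD4 wild-type plate left out all 12 stayed higher and 8 were called, not Aurka, Aldoc, Cables2 and Ccnf.

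Ribosomal protein genes were high in both kinds of library and higher still in the populations. Of 81 tested cytosolic ribosomal protein genes (84 in the table), 80 were called higher and 1 lower, close to the 97.9% called among all genes at 1000 FPKM or more. After centring 36 were called higher and 1 lower, against 0.654% and 0.122% of all tested genes. Of the 81, 73 lay above the plate median in all 4 plates, against 10.3% of all tested genes. These shares of all tested genes are not matched to level. Of the 75 genes of any class called higher after centring, 46 had a mean of 1000 FPKM or more, where the median level of this list lies. Without the CD4 wild-type plate 80 of the ribosomal protein genes were still called higher on the deposited scale. Rps21 had 2522, 2133, 1294 and 1089 FPKM in the population libraries, against 599, 565, 316.7 and 296.4 FPKM in the pools, a difference of 1.97 ± 0.12 (adjusted p = 0.000126, limma; 0.00646 after centring). Rpl39 had 4510.2, 4623, 2179.8 and 2139.7 FPKM in the population libraries, against 1108, 1126, 687 and 691 FPKM in the pools (1.84 ± 0.12, adjusted p = 0.000126). In both genes the lowest population library was above the highest pool. Rps2 was the exception, with 1609, 1508, 726 and 483 FPKM in the population libraries, against 2531, 1818, 870.4 and 1261 FPKM in the pools, lower in all 4 plates (-0.64 ± 0.19, adjusted p = 0.0392), and its locus also holds the small nucleolar RNA Snora64. Ribosomal protein genes have many processed copies in the genome, and RSEM divides shared reads by an estimate, so single members are uncertain. Where the mean of log2 values over cells took the place of the log2 of the mean, the class lay 1.10 below the median gene.

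Respiratory chain genes and mitochondrial ribosomal proteins followed. Of 76 tested subunits of oxidative phosphorylation 69 were called higher and 0 lower, against 23.4% of all tested genes and 73.2% of genes at 100 to 300 FPKM, and 9 were called higher after centring, against 0.654%. Without the CD4 wild-type plate 67 were called higher, and without any other single plate 48 to 58. Ndufs8, a subunit of complex I, had 371.03, 652, 369.02 and 190.5 FPKM in the population libraries, against 112.3, 175.1, 73.4 and 51.7 FPKM in the pools (1.95 ± 0.18, adjusted p = 0.000354, limma). Cox7c, a subunit of cytochrome oxidase, had 657, 796, 434 and 409 FPKM in the population libraries, against 154.5, 232.2, 103.6 and 149.8 FPKM in the pools (1.84 ± 0.17, adjusted p = 0.000341). Of 76 mitochondrial ribosomal proteins 38 were called higher and 0 lower (43 higher without the CD4 wild-type plate, 10 to 19 without another), against 32.6% of genes at 30 to 100 FPKM. Mrpl33 among them had 467, 489, 254.99 and 283.03 FPKM in the population libraries, against 86.3, 126.6, 89.7 and 49.9 FPKM in the pools (2.08 ± 0.22, adjusted p = 0.000571). Their class median lay 0.55, 0.62, 0.29 and 0.01 above the plate medians, least in the CD4 wild-type plate. Of 16 glycolysis genes 13 were called higher, Gapdh among them with 10203, 16023, 9409.5 and 8962 FPKM in the population libraries, against 3758, 7019, 3597 and 4368 FPKM in the pools (1.26 ± 0.09, adjusted p = 0.000181), and of 38 proteasome subunits 32. The shares at the levels of these 2 lists were 90.5% and 73.2%, and without the CD4 wild-type plate 13 and 32 were called, and without another plate 9 to 13 and 21 to 25. Housekeeping transcripts took the same direction on the deposited scale, Actb with 0.99 ± 0.09 (adjusted p = 0.000305) and Eef1a1 with 0.91 ± 0.10 (adjusted p = 0.00074), but Eef1a1 lay at -0.03 with libraries rescaled.

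Level and transcript length moved with these classes. By mean level over the 8 columns, the median difference was 0.24 for genes at 1 to 3 FPKM, 0.68 at 10 to 30 FPKM, 0.94 at 100 to 300 FPKM and 1.13 at 1000 FPKM or more. Among 1922 genes at 100 FPKM or more, it was 1.52 for 33 genes whose longest protein-coding transcript is under 500 bases and 0.82 for 94 genes of 5000 bases or more. Spearman's rho between difference and length over these genes was -0.403, a description across genes that share libraries, and by plate it was -0.386, -0.425, -0.258 and -0.040. Of the 75 genes called higher after centring, 51 had a transcript under 1000 bases (68%, against 6.5% of all tested genes), 36 were cytosolic ribosomal proteins, 9 were respiratory subunits and 2, Ube2c and Cenpa, were proliferation genes. The median transcript of these 75 was 738 bases long, against 2957 bases over all tested genes. Taken from the median of genes in the same range of level, the class median was 0.713 for proliferation genes and 0.357 for respiratory subunits. It was 0.245 for cytosolic ribosomal proteins, 0.153 for cytokines and chemokines and 0.134 for glycolysis genes. For naive and memory genes it was -0.448, for immediate early genes -0.445 and for T cell transcription factors -0.32. Zinc finger genes lay at -0.034 and T cell identity at -0.115. These values describe level only, and the part of length and level in the class differences was not tested.

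**Figure D3:**
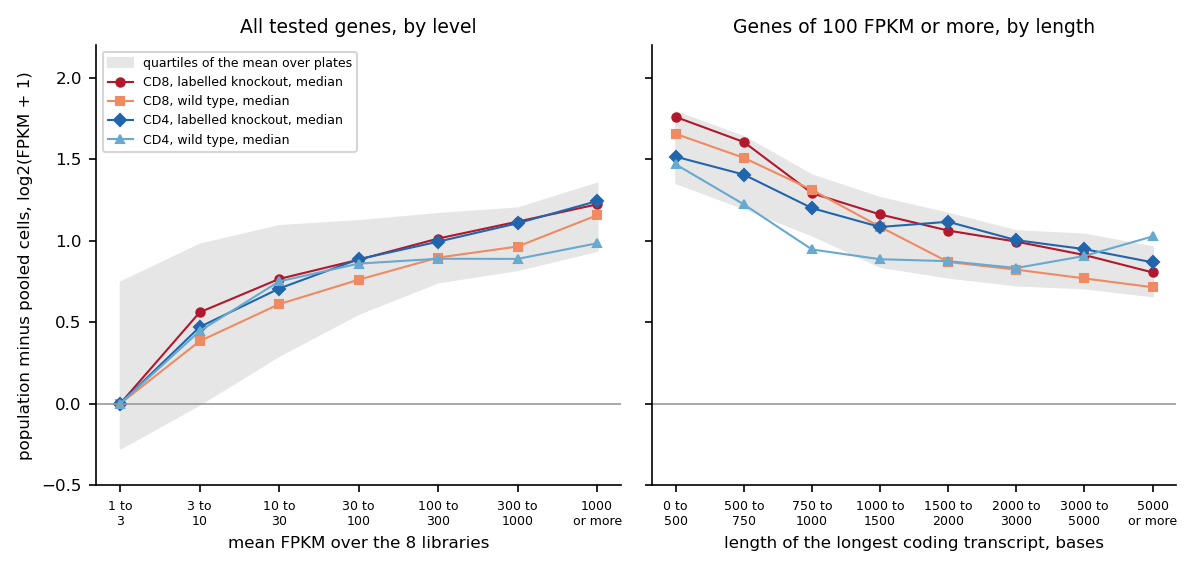
Median difference, population minus pooled cells on the log2(FPKM + 1) scale (y axis), by mean FPKM over the 8 columns (left) and by length of the longest protein-coding transcript among genes at 100 FPKM or more (right), with 1 line per plate and the quartiles of the mean over plates in grey. The median over genes of the mean over plates (inside the grey band, not drawn) is 0.24 at 1 to 3 FPKM, where each plate's own median is near 0, and 1.13 at 1000 FPKM or more, and the line of the CD4 wild-type plate is the flattest by length.

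Among receptors of activated T cells, Tnfrsf9 and Tnfrsf4 were higher in every population library. Tnfrsf9, which encodes 4-1BB, had 921, 1163, 2481 and 2198 FPKM in the population libraries, against 232.7, 308.01, 916 and 606 FPKM in the pools, where 20, 32, 34 and 22 cells had it. All 4 population libraries were more than 2-fold above their pools (1.80 ± 0.13, adjusted p = 0.000183, limma), and it was the co-stimulatory receptor called after centring (adjusted p = 0.0149). Tnfrsf4, which encodes OX40, had 563, 526, 2576 and 2223 FPKM in the population libraries, against 117.4, 73.5, 889.9 and 813 FPKM in the pools (2.01 ± 0.23, adjusted p = 0.000838; 0.0521 after centring). Of 10 co-stimulatory receptors 6 were called higher and 0 lower, and the list's median lay 0.06 above the median gene. Of 14 co-inhibitory receptors 7 were called higher and 0 lower. Both counts are above the 23.4% of all tested genes and below the 90.5% and 73.2% of genes at the levels of these lists, and without the CD4 wild-type plate they were 4 and 5, and without another plate 4 to 5 each. Pdcd1, which encodes PD-1, had 940.5, 1658, 497 and 559.9 FPKM in the population libraries, against 302.1, 1082, 147.3 and 238.1 FPKM in the pools (1.31 ± 0.20, adjusted p = 0.00316). Tigit, Lag3 and Ctla4 differed by 1.41 ± 0.14, 1.24 ± 0.18 and 0.96 ± 0.15 (adjusted p = 0.000442, 0.00297 and 0.00374). After centring limma called 0 of the co-inhibitory receptors, whose median lay 0.19 above the median gene.

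Effector genes differed in direction between members. Of 17 cytokine and chemokine genes 8 were called higher and 0 lower, and 6 higher without the CD4 wild-type plate and 2 to 3 without another, against 23.4% of all tested genes and 73.2% of genes at 100 to 300 FPKM. Ccl4, a chemokine of activated CD8 T cells, had 3774, 3311, 1018 and 234.9 FPKM in the population libraries, against 844, 1900.5, 186.2 and 100.1 FPKM in the pools (1.66 ± 0.26, adjusted p = 0.00357, limma). Il10, an inhibitory cytokine induced by IL-27, had 39.4, 82.5, 441 and 368.5 FPKM in the population libraries, against 0, 12.2, 272.3 and 183.97 FPKM in the pools (2.42 ± 0.67, adjusted p = 0.0325), with the higher values in the CD4 plates in both kinds of library. The median of this list without single plates ranged from 0.47 below to 0.70 above the median gene, so no direction is given for the list. Of 15 cytotoxic granule genes, with a median level in the same range, 7 were called higher and 1 lower, against 0.236% of all tested genes called lower. Without the CD4 wild-type plate 7 were called higher, and 1 to 5 without another. Prf1, which encodes perforin, had 727, 1945, 89.8 and 43.4 FPKM in the population libraries, against 285.1, 403, 42.6 and 8.66 FPKM in the pools (1.72 ± 0.25, adjusted p = 0.00279). Gzmd had 222.7, 3.48, 89.1 and 0 FPKM in the population libraries and was listed at 0 in all pools; no kept cell had it at 1 FPKM or more, which allows it to be read in up to 3.90%, 4.17%, 3.85% and 4.05% of cells (3 counts) and does not limit the share of cells that express it. Gzme had 350.8, 7.07, 29.5 and 0 FPKM in the population libraries and 0.06, 0, 0 and 0 FPKM in the pools. Both granzymes were thus read in the populations labelled knockout at 29.5 FPKM or more and in the CD8 wild-type population at 7.07 FPKM or less; the granzyme genes of this cluster are close copies and their reads can be shared. Gzmb, which encodes granzyme B, did not pass the test (0.82 ± 0.27, adjusted p = 0.0585).

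T cell receptor complex genes followed the scale of the libraries. Of 18 identity genes 16 were called higher and 0 lower on the deposited scale and 0 after centring, close to the 90.5% of genes at 300 to 1000 FPKM on the deposited scale, and 10 to 12 were called higher with any single plate left out. Cd3d differed by 1.36 ± 0.15 (adjusted p = 0.000763, limma). Cd3e had 698, 849, 245.4 and 478 FPKM in the population libraries, against 397, 549, 217.6 and 267.02 FPKM in the pools (0.61 ± 0.16, adjusted p = 0.0273), but lay at -0.14 after centring and at -0.38 with libraries rescaled. Among regulatory T cell genes 8 of 16 were called higher and 0 lower (4 to 6 higher with a single plate left out), against 32.6% of genes at 30 to 100 FPKM. Folr4, a member of the folate receptor family that marks regulatory T cells, differed by 1.62 ± 0.19 (adjusted p = 0.000976, limma). Foxp3, the defining transcription factor of these cells, differed by 0.40 ± 0.42 (adjusted p = 0.517).

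Few genes were lower in the population libraries. Of the 27 called lower on the deposited scale 5 were unnamed loci, and the 12 lowest that passed the rule for named genes ran from Lamp1 to Ier2. Lamp1, a membrane protein of lysosomes that reaches the surface when killer cells degranulate, had 9.13, 5.07, 0.91 and 0 FPKM in the population libraries, against 70.98, 28.6, 28.6 and 85.5 FPKM in the pools, where 18, 7, 11 and 15 cells had it. It was at least 5-fold lower in 3 population libraries and listed at 0 in that of the CD4 wild-type plate (-3.88 ± 0.70, adjusted p = 0.00651, limma; -4.63 ± 0.69 after centring, adjusted p = 0.0269), and its locus (chr8:13159161-13175338, plus strand) overlaps Grtp1 on the other strand. Snx20, a sorting nexin of leukocytes, had 21.5, 17.1, 0 and 14.9 FPKM in the population libraries, against 66.7, 78.9, 92.2 and 188.7 FPKM in the pools (-3.46 ± 0.73, adjusted p = 0.0115). Rnf187, a ubiquitin ligase, had 69.9, 21.9, 11.6 and 48.7 FPKM in the population libraries, against 129.9, 84.8, 104.2 and 134.1 FPKM in the pools (-1.82 ± 0.36, adjusted p = 0.00949). All 3 were below their pool in every plate. Insl3, a peptide hormone of the testis, had 0, 0, 8.41 and 0 FPKM in the population libraries and 11.4, 19.8, 31.6 and 15.9 FPKM in the pools, and it lies inside Jak3 on the same strand, so its reads cannot be told apart from those of Jak3. Tsix, the antisense partner of Xist, overlaps it on the other strand (-1.68 ± 0.53, adjusted p = 0.0492). Sh2b3, Nubp1 and Elac2 differed by -2.23 ± 0.59, -2.08 ± 0.56 and -2.04 ± 0.57 (adjusted p = 0.0277, 0.0288 and 0.0348). Without the CD4 wild-type plate all 12 of the lowest genes stayed lower and 6 were called, not Snx20, Sh2b3, Nubp1, Elac2, Tsix and Ier2. With the mean of log2 values over cells in place of the log2 of the mean, 11 of these 12 genes turned to a positive difference, all but Insl3, and limma called 0 genes lower in that setting.

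Lower genes with high levels included regulators of signalling and homing. Dusp2, a nuclear phosphatase induced by activation, had 89.05, 49.4, 49.4 and 41.9 FPKM in the population libraries, against 227.1, 96.4, 78.4 and 126.01 FPKM in the pools, lower in all 4 plates (-1.13 ± 0.25, adjusted p = 0.0133, limma). Itgb7, the integrin chain that guides T cells to the gut, had 245.7, 65.3, 457 and 422 FPKM in the population libraries, against 413, 137.96, 974 and 718 FPKM in the pools (-0.92 ± 0.15, adjusted p = 0.00494; -1.67 ± 0.15 after centring, adjusted p = 0.00646). Eif3f, a translation initiation factor, had 375.6, 310.4, 224.3 and 238.9 FPKM in the population libraries, against 591, 528, 373.8 and 591 FPKM in the pools (-0.86 ± 0.16, adjusted p = 0.00764). Ier2, an immediate early gene, had 461, 125.5, 613 and 156.9 FPKM in the population libraries, against 710.4, 182.3, 752 and 393 FPKM in the pools (-0.69 ± 0.19, adjusted p = 0.0321). For each of Dusp2, Itgb7, Eif3f and Ier2 the pool was above the population library of its plate, and all 4 were also called lower after centring.

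Immediate early genes, which are switched on within minutes of receptor signalling or of handling, did not move as 1 group. On the deposited scale 7 of 22 tested were called higher, near the 23.4% of all tested genes and below the 90.5% of genes at 300 to 1000 FPKM. On the same scale 2, Dusp2 and Ier2, were called lower, against 0.236% of all tested genes. With a single plate left out 3 to 5 were called higher. After centring 0 were called higher and the same 2 lower, against 0.654% and 0.122% of all tested genes. Of the 22, 4 lay below the plate median in all 4 plates and 1 above it, against 9.05% and 10.3% of all tested genes. The 22 genes summed to 16136, 5576, 35679 and 16025 FPKM in the population libraries, against 10667, 4272, 19796 and 9776 FPKM in the pools, highest in the CD4 plate labelled knockout in both. Dusp1, a stress-induced phosphatase, had 1837, 1198, 3799.5 and 2433 FPKM in the population libraries, against 964, 717, 2227 and 1605 FPKM in the pools (0.76 ± 0.11, adjusted p = 0.0023, limma). Nr4a1, an orphan receptor induced by antigen, had 899, 322.3, 2216 and 654 FPKM in the population libraries and 541, 344.98, 1246 and 414 FPKM in the pools and did not pass (0.53 ± 0.17, adjusted p = 0.0556). Fos differed by 0.68 ± 0.14 (adjusted p = 0.0108) but lay at -0.07 after centring and -0.32 with libraries rescaled. The list's median lay 0.25 below the median gene, and 0.02 above it with a pseudocount of 10 FPKM or without a filter on low values.

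Of 13 tested naive and memory genes 1 was called higher and 0 lower, against 23.4% of all tested genes and 73.2% of genes at 100 to 300 FPKM called higher, and 0 to 1 were called higher with a single plate left out. Tcf7, the transcription factor of stem-like T cells, did not pass (0.49 ± 0.19, adjusted p = 0.0926, limma), nor did Il7r, the receptor of IL-7 (0.43 ± 0.18, adjusted p = 0.115), or Ccr7 (0.96 ± 0.37, adjusted p = 0.0937). S1pr1, the receptor for leaving tissue, had 226.5, 59.8, 254.4 and 331.9 FPKM in the population libraries and 167.1, 114.2, 168.4 and 164.4 FPKM in the pools, lower in the population of the CD8 wild-type plate alone. The class lay 0.44, 0.46 and 0.20 below the plate median in 3 plates and 0.02 above it in the CD4 wild-type plate. Among 23 T cell transcription factors 6 were called higher and 0 lower. That is near the 23.4% of all tested genes and below the 32.6% of genes at 30 to 100 FPKM, where their median level lies. With a single plate left out 2 to 4 of them were called higher. Of the tested zinc finger genes (76.9% of the 360 in the table) 13 were called higher (4.7%) and 0 lower. That share compares with 23.4% of all tested genes and 1.9% of genes at 3 to 10 FPKM, where the list's median level lies. In all 4 plates 33 zinc finger genes lay below the plate median and 13 above it, against 9.05% and 10.3% of all tested genes.

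Detection in single cells followed the population level. Genes at 1 to 3 FPKM in a population library were seen in a median of 2.6%, 2.8%, 2.6% and 4.1% of the plate's kept cells, those at 100 to 300 FPKM in 31.2%, 37.5%, 26.9% and 28.4%, and those at 1000 FPKM or more in 92.2%, 86.8%, 84.6% and 87.8%. The highest cell of a gene gave a median of 23.8%, 23%, 28.4% and 28.9% of the pool. Genes read in the population library and in no kept cell numbered 640, 442, 506 and 443, or 5.9%, 4.1%, 4.84% and 4.47% of those it detected, at median levels of 3.8, 3.02, 4.36 and 6.53 FPKM. Genes read in at least 1 cell and under 1 FPKM in the population library numbered 1955, 2837, 2229 and 2844, and 1013, 1618, 1150 and 1431 of these were read in a single cell.

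**Figure D4:**
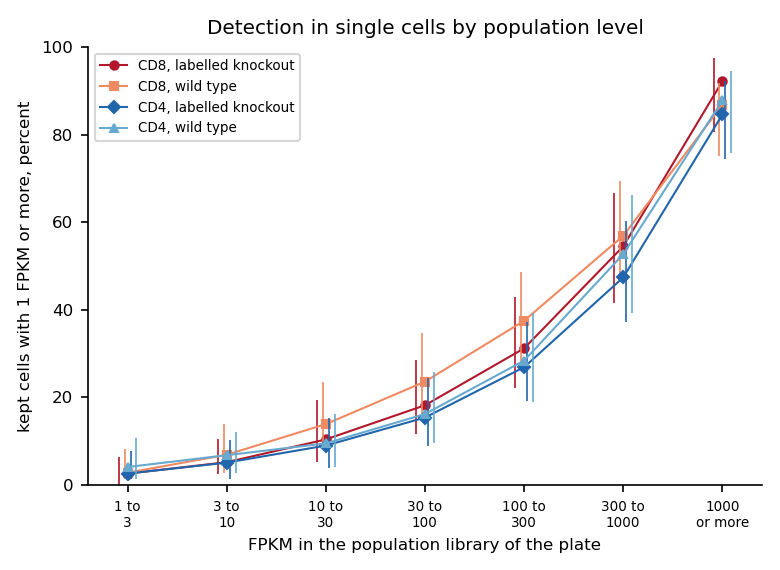
Median share of a plate's kept cells with 1 FPKM or more of a gene, in percent (y axis), by the gene's FPKM in the plate's population library (x axis), 1 line per plate. The share is under 5% for genes at 1 to 3 FPKM and above 80% for genes at 1000 FPKM or more in every plate.

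A small number of genes were seen on 1 side in several plates; those named here were chosen after their values were seen. Genes under 1 FPKM in the population library but at 1 FPKM or more in at least 10% of kept cells made up 0.777%, 0.927%, 0.909% and 0.79% of the table, and 19 genes were among them in all 4 plates, 16 with pooled means under 2 FPKM everywhere. Klhl41, a kelch protein of muscle, was listed at 0 in all 4 population libraries and was read in 35, 26, 27 and 21 cells, with pooled means of 1.47, 1.91, 1.66 and 1.04 FPKM. The unnamed locus Gm8989 was listed at 0 in the populations and had pooled means of 6.35, 3.29, 9.75 and 8.94 FPKM. On the other side, 0.457%, 0.201%, 0.427% and 0.705% of the table had at least 10 FPKM in the population library and no kept cell at 1 FPKM, with 0 genes common to all 4 plates and 2 common to 3 plates. Tst, a mitochondrial sulfurtransferase, had 0, 10.4, 14.96 and 32.5 FPKM in the population libraries and was listed at 0 in all pools, and Unc13b, a vesicle priming protein, had 14.2, 5.18, 10.4 and 14.4 FPKM in the population libraries and no cell at 1 FPKM or more.

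Markers of other cells differed between population and pool in plate-specific ways. The 17 myeloid markers, 4 of them listed at 0 in all population libraries, summed to 724, 643.5, 739 and 256.05 FPKM in the population libraries, against 170.5, 421.5, 868 and 2777 FPKM in the pools, which puts the CD4 wild-type plate opposite to the CD8 plates. The 9 genes of MHC class II presentation summed to 3752, 4489, 1469 and 594 FPKM in the population libraries, against 897, 2554, 1108 and 2061 FPKM in the pools. The 9 melanoma markers summed to 8.9, 60.3, 40.7 and 123.3 FPKM in the population libraries, against 27.4, 465, 20.2 and 62.5 FPKM in the pools. Tyr, the tyrosinase gene, was at 1 FPKM or more in 75, 72, 77 and 74 of the 77, 72, 78 and 74 kept cells, with 8.49, 12.9, 18.96 and 18.8 FPKM in the population libraries and 8.94, 20.4, 9.68 and 8.8 FPKM in the pools, and at 0 in the no-cell wells. Dct, the melanocyte dopachrome tautomerase, had 0, 16.6, 0.91 and 33.1 FPKM in the population libraries and 4.61, 129.6, 0 and 15.4 FPKM in the pools. In a setting added after seeing the data, cells with any of 7 markers were left out of the pools. The markers were Dct, Pmel, Mlana, Lyz2, Csf1r, C1qa and Cd79a. Of the 2679 genes called higher on the deposited scale 2415 were called again, and of the 27 called lower 22 were. A population library cannot be split by cell, and the part of other cells' RNA in it was not tested.

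**Figure D5:**
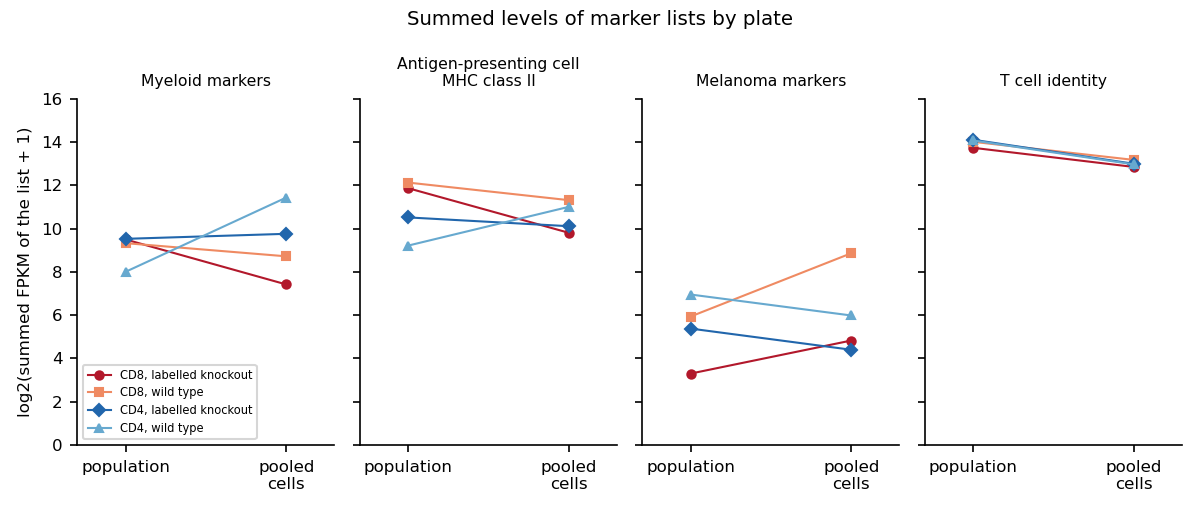
Summed FPKM of marker lists on the log2(sum + 1) scale (y axis) in the population library and in the pooled cells of each plate, 1 line per plate. The myeloid line of the CD4 wild-type plate rises from left to right (256.05 FPKM in the population library, 2777 FPKM in the pool), whereas T cell identity falls in every plate.

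The difference itself was tested between CD4 and CD8 plates in a limma fit with terms for cell type and genotype, which leaves 1 residual degree of freedom per gene. The difference was lower in CD4 than in CD8 plates for 11 genes (0.096%) and higher for 1 (0.00872%), and 768 genes had an unadjusted p under 0.05. Of the 11, Lyz2 and Apoe are on the myeloid list and H2-Aa and H2-Ab1 on the MHC class II list. Lyz2, the lysozyme of myeloid cells, had 47.1, 21.4, 12.9 and 0 FPKM in the population libraries, against 6.52, 34.3, 346.1 and 653 FPKM in the pools, where 2, 3, 12 and 4 cells had it (-8.01 ± 0.80, adjusted p = 0.000377). The highest cell alone gave 99.6, 54.1, 97.8 and 89.9% of these pooled values, so both CD4 pools rest on about 1 cell. Apoe, a lipoprotein of macrophages, had 113.8, 36.5, 29.5 and 0 FPKM in the population libraries, against 6.02, 16.4, 25.9 and 740.1 FPKM in the pools (-7.25 ± 1.19, adjusted p = 0.0281). Its difference was 0.18 in the CD4 plate labelled knockout and -9.53 in the CD4 wild-type plate, and with either CD4 plate left out no residual degree of freedom remains for a test. H2-Aa, an MHC class II chain, had 1218, 1165, 459 and 176.7 FPKM in the population libraries, against 210.8, 656, 302.4 and 552 FPKM in the pools (-2.19 ± 0.32, adjusted p = 0.0109). These 3 were higher in the population libraries of the CD8 plate labelled knockout and lower in that of the CD4 wild-type plate than in the pools. The chemokines Ccl2 and Ccl6 moved likewise (-8.18 ± 1.36 and -7.80 ± 0.89, adjusted p = 0.0281 and 0.0011). Penk, the precursor of enkephalins, was the gene that went the other way, with 172.5, 32.4, 771 and 123.7 FPKM in the population libraries, against 77.6, 169.9, 71.8 and 2.92 FPKM in the pools (4.80 ± 0.83, adjusted p = 0.0342). Without cells that held markers of other types 60 genes were called, a choice made after seeing the data, and 0 without the trend (729 at an unadjusted p under 0.05) or without the plate block.

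Between plates labelled knockout and wild-type plates the difference passed the test for 0 genes in limma, with 732 at an unadjusted p under 0.05, and for 0 without the trend (600 at an unadjusted p under 0.05). The smallest adjusted p was 0.0733, shared by Fcgrt, H2-Aa and the unnamed locus Gm20594. Fcgrt, the neonatal Fc receptor, had 45.4, 1.88, 7.07 and 0 FPKM in the population libraries and 5.91, 41.8, 0 and 82.2 FPKM in the pools (8.02 ± 1.33). Under 6 of the alternative settings 11 to 54 genes were called.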

How the data were processed

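Smart-seq2 libraries of 4 population wells and 94 single-cell wells on each of 4 plates were used; 4 no-cell wells served as background. The authors deposited 1 table of FPKM, normalized by TMM, with 23420 gene symbols. The submitters' processing notes name Bowtie, RSEM and build mm10, and the sources used here give no versions. RSEM assigns a read shared by related genes by estimation. Read counts were not used here, so sequencing depth is unknown and genes per cell stand in for it. Cells with at least 1000 genes at 1 FPKM were kept and averaged per plate; no doublet caller was run.

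Genes with a mean of at least 1 FPKM over the 8 columns were fitted on log2(FPKM + 1) with limma 3.58.1 (R 4.3.3; intensity trend, plate as a block, Benjamini-Hochberg over all 11462 genes, threshold 0.05). Pairs come from the shared plate. Interaction terms tested whether the difference varied with cell type or genotype. Other steps used Python 3.11.15, pandas 2.3.3 and scipy 1.17.1. The fits were tested on simulated data. Transcript lengths and overlaps come from GENCODE M21 (GRCm38). Lengths were first taken from the longest transcript of any kind and then, after the bins were seen, from the longest protein-coding one.

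The comparison, the gene lists and the rule for named genes were chosen with earlier results of these data known. The rule named the 12 highest and 12 lowest differences among called genes of the same sign in all 4 plates with a mean of at least 10 FPKM, up to 4 members of each class with the largest difference, up to 6 genes each way in the tests between plates, and 15 genes set by name; further members named were chosen after their values were seen. The values of 1 gene of the naive and memory list are not reported here. Alternatives covered pseudocounts, filters on genes and cells, the way cells were averaged, scaling, the block, the trend and each plate left out.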

Additional observations from a re-analysis of the deposited data

Results flagged for a closer look

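In 79 groups of 4 plate values, 1 plate stood far from the other 3 in 3 groups by Dixon's criterion, and chance alone gives about 1 in 20. All 3 concern the CD4 wild-type plate. Its class median, population minus pooled cells and relative to the plate's median gene (log2), was -0.72 for cytotoxic granule genes, 0.017 for housekeeping genes and 0.72 for olfactory receptors.

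For 12 genes the difference between population and pool itself differed between CD4 and CD8 plates (limma interaction term, adjusted p under 0.05). The CD4 minus CD8 value of the difference (log2) was -8.18 for Ccl2, -8.01 for Lyz2, -7.80 for Ccl6, -7.44 for Wfdc17, -7.25 for Apoe, -7.21 for Lilrb3, -6.23 for Clec10a, -5.93 for Cfp, -3.38 for Ifitm3, -2.74 for H2-Ab1 and -2.19 for H2-Aa, and 4.80 for Penk. In the CD4 wild-type plate Ccl2, Lyz2, Ccl6 and Apoe were listed at 0 in the population library and had pooled means of 146.02, 653, 191.6 and 740.1 FPKM, from 3, 4, 3 and 8 cells with 1 FPKM or more. Their part in the other results was not tested.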

How the results depend on the processing

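Sequencing depth is unknown, a pool holds 72 to 78 cells and 1 cell often carries much of a gene's value; 4 pairs limit every test. The cause of the changes below was not tested except where a setting removes plates, cells or genes. The planned removal of cells with markers of other types left 2 cells in all, because Tyr was at 1 FPKM or more in nearly all of them, and was not run; the added version without Tyr kept 68, 54, 62 and 55 cells. Added settings (that one, cells weighted by detected genes, and all centred combinations) were chosen after seeing the data. Of 917 values of named genes under alternatives 26 were counted as reversed, and of 600 class values 19 were. These counts leave out further changes of sign. The CD4 lineage list kept its sign in 7 of 15 alternatives. Foxp3, Tcf7 and Malat1 ranged down to -0.35, -0.67 and -0.71 and were not counted. Proliferation genes stayed 0.57 to 2.03 above the median gene in every setting run.

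Genes called higher (2679) numbered 1525 with no filter on low values, 4515 with all wells, 1191 with cells of 2000 or more genes, 9533 with the mean of log2 values over cells, 5229 without the highest cell of each gene, 12 with libraries rescaled, 75 after centring, 0 without the trend and 1778 with weighted cells. Genes called lower (27) numbered 13 with cells of 2000 or more genes, 0 with the mean of log2 values, 16 without the highest cell, 13 rescaled, 14 centred and 0 without the trend. Leaving out a plate gave 794 to 2009 higher and 4 to 15 lower. Without the replicate block that pairs libraries by plate, 1474 were called higher and 13 lower (deposited scale), 0 in either direction after centring, and 0 between CD4 and CD8 plates. Deviations of a population library from the mean of its kind correlated with those of its own pool at 0.254, 0.494, 0.296 and 0.197 across genes.

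The median difference (0.75) was 0.47 with a pseudocount of 10 FPKM, 0.85 with the 10 FPKM filter, 0.47 with no filter, 1.00 with all wells, 0.64 with cells of 2000 or more genes, 3.50 with the mean of log2 values, 1.15 without the highest cell, 0.63 with weighted cells and -0.14 rescaled. Centred calls, 0.654% of tested genes higher and 0.122% lower, were 3.18% and 1.07% with a pseudocount of 10 FPKM, 1.06% and 0.245% with all wells, 0.148% and 0.026% with cells of 2000 or more genes, 0.145% higher without the highest cell, 0.339% and 0.0608% with weighted cells, and 0 to 0.532% higher and 0 to 0.0611% lower with a plate left out. Calls between CD4 and CD8 plates (12) were 2 with a pseudocount of 0.1 FPKM, 48 with 10 FPKM, 2 with the 10 FPKM filter, 0 with no filter, 19 with cells of 2000 or more genes, 80 with the mean of log2 values, 6 without the highest cell, 2 centred, 0 without the trend and 60 without cells with other markers. Calls between plates labelled knockout and wild type (0) were 44 with a pseudocount of 10 FPKM, 30 with the mean of log2 values, 11 without the highest cell, 16 rescaled, 54 without cells with other markers and 14 with weighted cells.

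Class medians minus the median of all genes are given next where they were counted as reversed. With the mean of log2 values they were T cell identity -0.39, T cell transcription factors 0.12 and cytosolic ribosomal proteins -1.10. In the same setting actin cytoskeleton lay at -1.20, MHC class I presentation at -0.11 and housekeeping genes at -1.08. Without the highest cell they were T cell identity -0.13, heat shock -0.12, actin cytoskeleton -0.13, MHC class I presentation -0.059, housekeeping -0.064, translation factors -0.042 and solute carriers 0.038. With no filter they were T cell transcription factors 0.059 and immediate early genes 0.024, and with a pseudocount of 10 FPKM immediate early genes 0.016. With the 10 FPKM filter small RNAs lay at 0.031. Heat shock lay at -0.012 rescaled and at -0.034 without cells with other markers. Other lists changed sign in an alternative without being counted. Among these, naive and memory genes reached 0.30, zinc finger genes 0.055, myeloid markers 0.81 and melanoma markers 0.51 above the median gene. Gene differences counted as reversed with the mean of log2 values were Lamp1 0.42, Snx20 0.90, Sh2b3 1.47, Nubp1 2.06, Elac2 1.61 and Rnf187 2.48. Also counted there were Tsix 0.49, Dusp2 3.49, Itgb7 2.42, Eif3f 1.62, Ier2 2.24 and Dct 2.08. The rest were Lyz2 3.06, Ccl6 3.62, Apoe 3.69, Lilrb3 2.32, Gm9846 3.37 and Fcgrt 2.15. Rescaling gave Cd3e -0.38, Il27ra -0.19, Fos -0.32 and Eef1a1 -0.031, and centring gave Cd3e -0.14 and Fos -0.071. Leaving out cells with other markers gave Lyz2 3.47, a change set by the choice of cells, since every cell with Lyz2 at 1 FPKM or more was dropped. Leaving out a plate gave Gm9846 -2.01 to 1.75. The rank correlation of length and difference was -0.349 with the longest transcript of any kind.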

Other observations

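Interferon-stimulated genes varied with the plate. Of 26 tested, 10 were called higher in the population libraries and 0 lower (limma, deposited scale), against 32.6% of genes at 30 to 100 FPKM, 0 to 9 were called higher with a single plate left out, and the list's median lay 0.51 below the plate median in the CD8 plate labelled knockout and 0.05, 0.40 and 0.75 above it in the CD8 wild-type plate, the CD4 plate labelled knockout and the CD4 wild-type plate. Ifit1, an antiviral protein, had 150.6, 16.03, 249.3 and 289.1 FPKM in the population libraries and 138.2, 15.2, 55.5 and 35.95 FPKM in the pools (1.33 ± 0.49, adjusted p = 0.0794). In the CD4 plates its population level was well above the pool, whereas in the CD8 plates it was close to it. Isg15, a ubiquitin-like modifier, had 27.2, 51.8, 97.6 and 80.2 FPKM in the population libraries and 65.4, 11.6, 39.8 and 14.1 FPKM in the pools (1.13 ± 0.56, adjusted p = 0.176).

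Histone genes were called at about the share of genes at their level. Of 42 tested replication-dependent histones 1 was called higher and 0 lower, with a median difference of 0.61, against 1.9% of all genes at 3 to 10 FPKM, and of 8 replication-independent ones 6 were called higher and 0 lower, with a median of 1.07, against 73.2% at 100 to 300 FPKM. H2afz, a variant histone with a polyadenylated transcript, had 2813, 3350.1, 1963 and 1477 FPKM in the population libraries and 766, 1130.4, 639 and 672 FPKM in the pools (1.55 ± 0.14, adjusted p = 0.000299). Replication-dependent histone transcripts lack a poly(A) tail as a rule; the part of this in the values was not tested. Of 779 small RNA genes 22 passed the filter on low values, with a median difference of 0.33. Snora64, a small nucleolar RNA within Rps2, was listed at 0 in all population libraries and had pooled means of 5.53, 2.77, 1.39 and 2.12 FPKM (adjusted p = 0.063).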
